A study of Bos taurus with 2 samples.

Results

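The genes described here are those of melanin synthesis and of the melanosome, the organelle in which melanocytes make and store pigment. They were chosen by name, as 10 genes: the enzymes TYR, TYRP1 and DCT, the melanosome proteins PMEL, MLANA and GPNMB, the transporters SLC24A5, SLC45A2 and OCA2, and the receptor GPR143. The choice was made with earlier results of these data known, so the counts below describe the set and test nothing. Array probes were tied to a gene through a RefSeq accession, which gave a symbol to 20587 of the 43639 probes (47.2%) and named 9647 genes. Among these probes 6 of the 10 genes were found, with 11 probes in all. MLANA, SLC45A2, OCA2 and GPR143 were matched by none of the named probes and were not analysed here, and the probes without a symbol could not be searched for them.

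Total RNA came from the nose (muzzle) of 2 female Hanwoo, the native cattle of Korea, each 30 months old. The light-muzzle cow was labelled with a Yellow nose and the dark-muzzle cow with a Black nose, and the study describes both kinds of animal as yellow-coated. The study froze the front part of the muzzle, and each RNA was read alone with the Cy3 dye on 1 bovine array. With 1 cow per muzzle colour there was no replicate and no test was made, so every difference below is a difference between 2 animals whose muzzles also differ in colour, and animal and colour cannot be told apart. A whole piece of tissue was used, so more melanocytes and more RNA per melanocyte cannot be told apart either.

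Melanin is built from the amino acid tyrosine inside the melanosome. TYR oxidises tyrosine to dopaquinone, the step on which both black-brown eumelanin and yellow-red pheomelanin depend, whereas DCT and TYRP1 act on later intermediates of eumelanin. PMEL forms the fibrils on which eumelanin is laid down, and SLC24A5 is a cation exchanger needed for full pigmentation. The transcription factor MITF is known to drive many of these genes in melanocytes.

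TYR, TYRP1, PMEL and SLC24A5, 4 of the 6 measured genes, were higher by 2-fold or more in dark-muzzle tissue. GPNMB had both of its log2 ratios within 2 errors of 0. The 2 probes of DCT lay on opposite sides of 0. The bright DCT probe was lower by under 2-fold, at a log2 ratio of -0.52. The dim DCT probe had only a lower bound, at 0.54, so whether it was past 2-fold is not known. Counted by probe, 7 of the 11 (63.6%) were at least 2-fold higher, against 9.76% of all 36630 probes with a ratio. None was at least 2-fold lower, against 7.17% of all probes. At 3-fold, 6 of the 11 were higher and 0 lower, against 4.42% and 3.19% of all probes. Since probes of a gene share its transcript, the genes give the plainer count: 4 of 6, against 9.86% of 8914 genes with a symbol and a value, and 0 lower, against 6.47%. The median log2 ratio (dark minus light) was 1.48 over the 6 genes and 0.065 over all 8914 genes. Only 5 of the 6 were measured in both cows, and their median was 1.34.

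**Figure D1:**
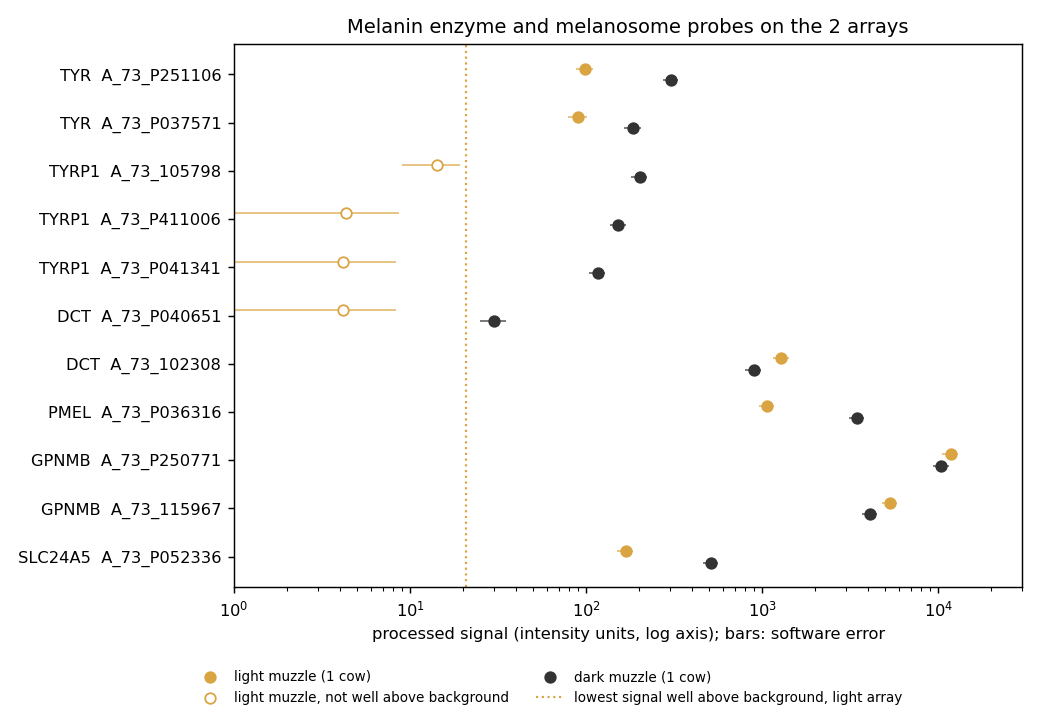
Processed signal (intensity units, log axis) of the 11 probes on the light-muzzle array (yellow) and the dark-muzzle array (black), with the error that the scanner software gives to each spot; open points were not well above background, and bars that reach the left edge extend below the axis. The dotted line is the lowest light-muzzle signal marked well above background. The 3 TYRP1 probes and 1 DCT probe lie left of it on the light-muzzle array alone. The TYR, PMEL and SLC24A5 probes lie further right in the dark-muzzle cow, and the GPNMB points lie close together.

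TYR (NM_181001) encodes tyrosinase, the rate-limiting enzyme of melanin synthesis. Its probe A_73_P251106 had a processed signal (background-subtracted brightness) of 98.3 in light-muzzle and 303 in dark-muzzle tissue. Its other probe, A_73_P037571, had signals of 90.1 and 184. Both probes were thus higher in the dark-muzzle cow, and both were well above background on each array. After each array was shifted by the 75th percentile of its signals, the log2 ratios were 1.63 ± 0.22 and 1.04 ± 0.23, where the error is that of the scanner software for a single spot and not a spread between cows. These correspond to 3.10-fold and 2.06-fold. The gap of 0.59 between the probes, with an error of 0.32, was wider than usual for a transcript: over 3456 transcripts with 2 probes measured in both cows the median gap was 0.22, and 17.7% had a gap at least as wide as that of TYR. Under normexp, another background correction, the mean of the TYR probes was 0.92, short of 2-fold, with A_73_P251106 at 1.15 and A_73_P037571 at 0.70. It was run on median pixel signals with an offset of 50 added to every spot. Such an added constant draws the ratios of dim spots towards 0, and its part in the drop was not tested.

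TYRP1 (NM_174480) encodes a relative of tyrosinase that takes part in the last steps of eumelanin synthesis and steadies tyrosinase itself. Its 3 probes gave the widest separation among the members. Probe A_73_105798 had a processed signal of 14.1 in light-muzzle and 201 in dark-muzzle tissue. Probe A_73_P411006 had 4.33 (software error 4.31) and 152, and probe A_73_P041341 had 4.15 (software error 4.14) and 116. The light-muzzle signals of A_73_P411006 and A_73_P041341 were thus barely larger than their own errors. None of the 3 was marked well above background in light-muzzle tissue, where the lowest signal so marked was 20.8, and all 3 were in dark-muzzle tissue. Only lower bounds can therefore be given. For these the dark-muzzle level was divided by the lowest marked light-muzzle signal, which exceeds the light-muzzle signals of the 3 probes themselves. It is not a strict limit, since a probe elsewhere on the light-muzzle array was not marked at a signal of 25.3. The TYRP1 bounds on that basis were 9.72-fold higher by the first probe, 7.35-fold by the second and 5.62-fold by the third. These bounds depend on the processing, and under normexp with its offset they were 3.24-fold, 2.98-fold and 2.62-fold. Detection on the dark-muzzle array alone was seen for 4 of the 11 member probes (36.4%), the fourth being a probe of DCT, and for 5.18% of all probes. Detection on the light-muzzle array alone was seen for 0 of the 11 and for 2.11% of all probes.

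The unprocessed brightness of the same spots was set against the negative controls, which are spots that should bind no bovine RNA. On the light-muzzle array the median pixel signal of 145 negative control spots ran from 34 to 51.5, with a median of 40. The TYRP1 probes had median pixel signals of 63, 44 and 50 there, in the order above, and 0, 34 and 8 of the 145 negative controls were at least as bright. A_73_P411006 and A_73_P041341 thus lay within the range of the controls and A_73_105798 lay a little above it. On the dark-muzzle array 144 negative controls ran from 37 to 57, with a median of 44.25, and the same probes stood at 253.5, 218 and 188, above every one of them.

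**Figure D2:**
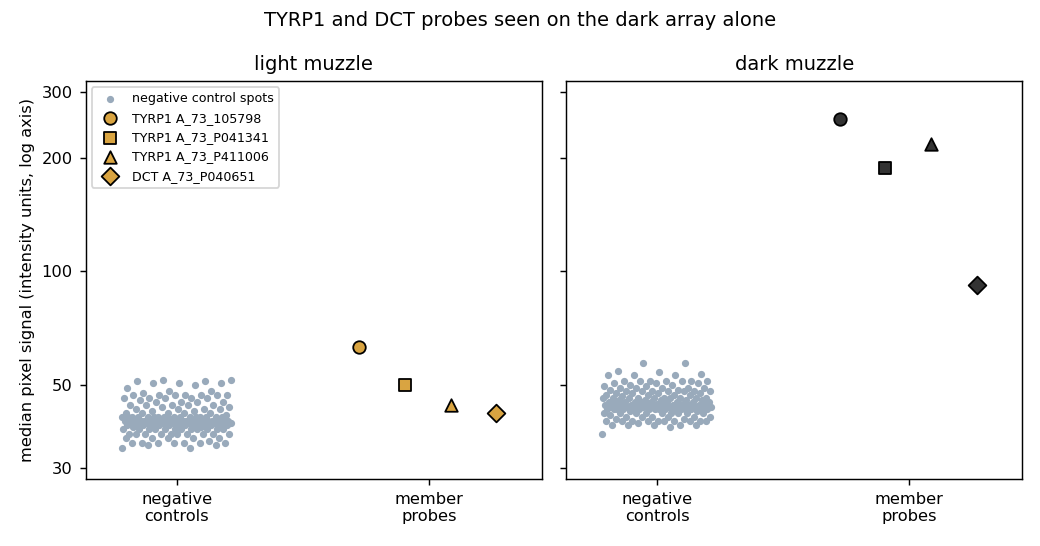
Median pixel signal (intensity units, log axis) of the 4 probes that were well above background on the dark-muzzle array alone, beside the negative control spots of each array (grey, 145 and 144 spots). On the light-muzzle array 3 of the 4 probes fall among the controls and TYRP1 A_73_105798 lies just above them; on the dark-muzzle array all 4 lie above the controls.

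DCT (NM_001012666) encodes dopachrome tautomerase, which directs dopachrome towards eumelanin. Its 2 probes differed. Probe A_73_102308 had signals of 1284 in light-muzzle and 891 in dark-muzzle tissue, with a log2 ratio of -0.52 ± 0.20. Probe A_73_P040651 was dim, with signals of 4.18 (software error 4.17) and 30.1, and was detected on the dark-muzzle array only. Its lower bound was a log2 ratio of 0.54, or 1.45-fold higher. On the light-muzzle array its median pixel signal of 42 was reached by 47 of the 145 negative controls, and on the dark-muzzle array its 92 was reached by 0 of 144. With the dim probe at its bound, the gap between the DCT probes was 1.06 in log2 ratio. By comparison, 90 percent of the transcripts with 2 measured probes had a gap under 0.86. Of TYR, TYRP1, DCT and GPNMB, the members with more than 1 probe, only DCT had probes on both sides of 0. Its value as a gene rested on the bright probe alone, and the dim probe, not measured above background in light-muzzle tissue, gives no exact ratio to set against it.

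**Figure D3:**
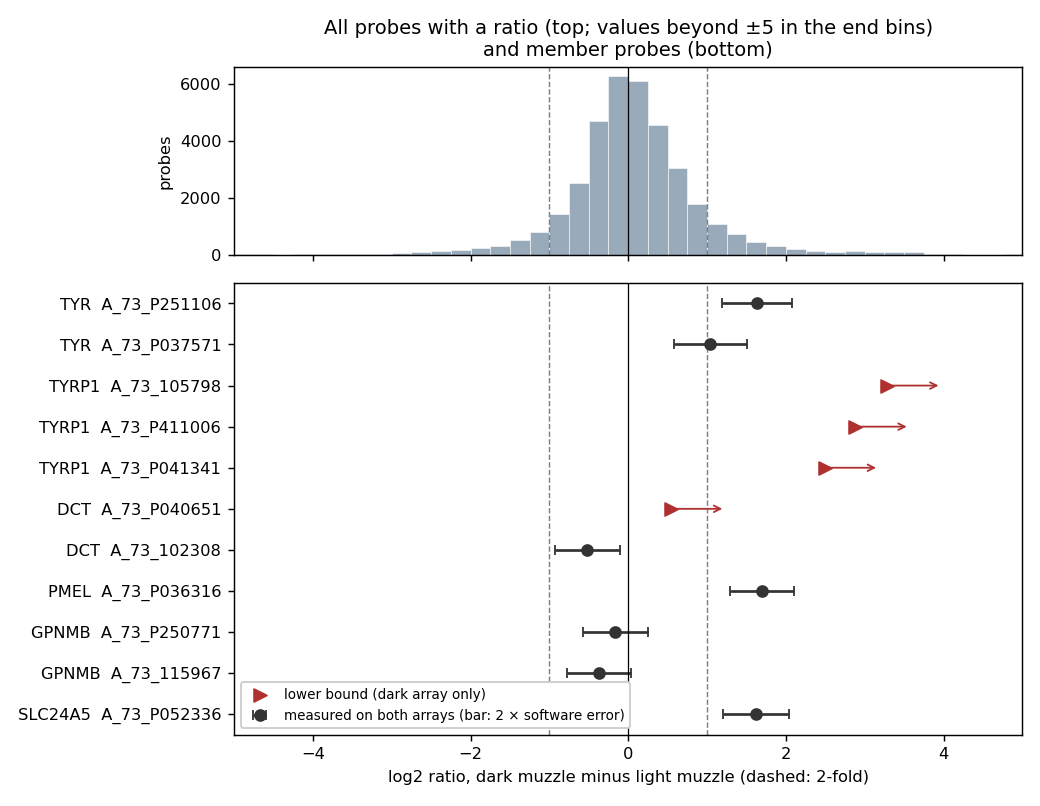
Lower panel: log2 ratio (dark muzzle minus light muzzle) of each member probe, as a point with a bar of 2 software errors where both arrays measured it and as an arrow from its lower bound where only the dark-muzzle array did. Upper panel: number of all 36630 probes with a ratio in bins of the same axis. The TYR, TYRP1, PMEL and SLC24A5 probes lie right of the 2-fold line (dashed), the DCT probes lie on both sides of 0, and the GPNMB bars reach 0.

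PMEL (NM_001080215), the protein of the melanosome's inner fibrils, was represented by 1 probe, A_73_P036316. Its processed signal was 1064 in light-muzzle and 3435 in dark-muzzle tissue, well above background in both. The log2 ratio was 1.70 ± 0.20, which is 3.25-fold. Over 10 processing alternatives its ratio lay between 1.68 and 1.73, the narrowest range among the members that were at least 2-fold higher.

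GPNMB (NM_001038065) encodes a membrane glycoprotein related to PMEL that is found in melanosomes and is also made by macrophages and other cells rich in lysosomes. Its 2 probes were bright in both cows. Probe A_73_P250771 had signals of 11713 and 10410 in the light- and dark-muzzle cow, and probe A_73_115967 had 5283 and 4064. The log2 ratios were -0.16 ± 0.20 and -0.37 ± 0.20, so neither lay further than 2 errors from 0. Both probes were lower in the dark-muzzle cow under all 10 alternatives, between -0.42 and -0.13. The gap between them, 0.21, was close to the median gap of 0.22 over transcripts with 2 probes.

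SLC24A5 (NM_001128509), the transporter, had 1 probe, A_73_P052336. Its signal was 168 in light-muzzle and 512 in dark-muzzle tissue, a log2 ratio of 1.62 ± 0.21 or 3.07-fold. Under normexp the ratio was 1.26, still past 2-fold. The ratios of PMEL, SLC24A5 and the higher TYR probe spanned 0.081 in log2, less than the error of any one of them. The other TYR probe lay lower, at 1.04, and under normexp PMEL was at 1.69, SLC24A5 at 1.26 and the TYR probes at 1.15 and 0.70. The bounds of TYRP1 lay above all of them, except under normexp, where the highest bound of TYRP1 and the ratio of PMEL were both 1.69. GPNMB and the bright DCT probe lay below them.

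For each member probe, the spots within 2 rows and 1 column, detected in both cows, had a median log2 ratio between -0.25 and 0.25. The ratios and bounds of the TYR, TYRP1, PMEL, SLC24A5 and DCT probes lay outside that range. GPNMB A_73_P250771, at -0.16, did not, and its neighbours had a median of -0.12.

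**Figure D4:**
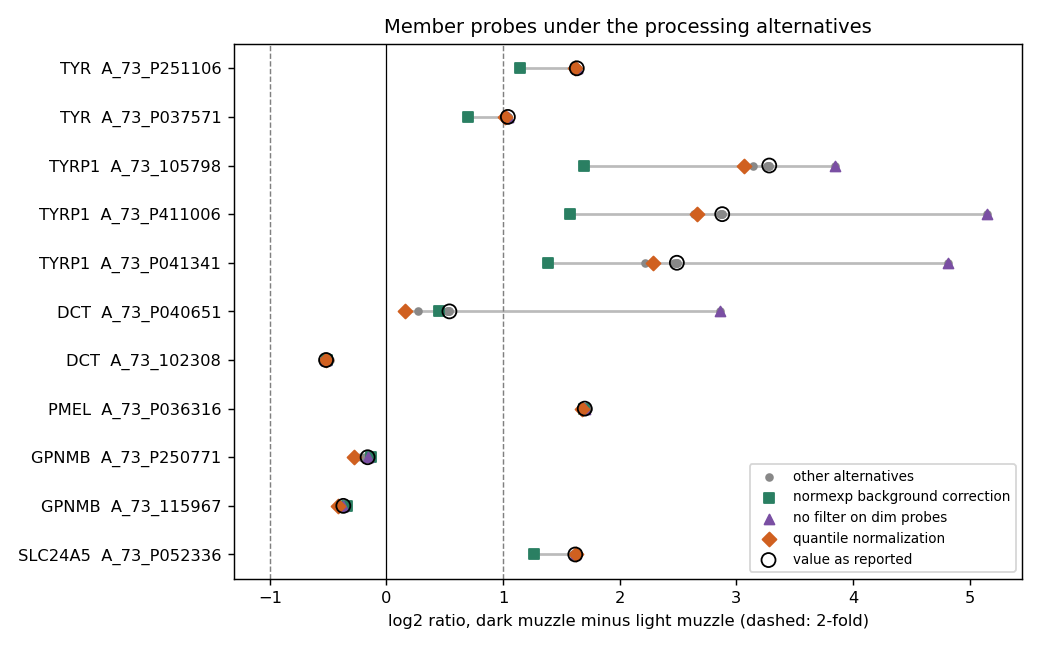
Log2 ratio (dark muzzle minus light muzzle) of each member probe as given above (open circle) and under the processing alternatives (other symbols), with a grey line over their range. PMEL, GPNMB and the bright DCT probe hardly moved. The dim TYR and TYRP1 probes lay closer to 0 under normexp with its offset (green squares). Leaving out the filter (purple triangles) moved the TYRP1 probes and the dim DCT probe to larger values.

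The factors that control melanocytes were compared with the members on the same arrays. Of 12 such genes, 9 had a probe, and 1 of these was higher by 2-fold or more in dark-muzzle tissue, 0 were at least 2-fold lower and 8 lay between. The share higher was near the 9.86% of all genes with a value. EDNRB, the endothelin receptor of melanocytes, was the gene past 2-fold. Its bound was 2.49-fold higher, from 1 probe that was detected on the dark-muzzle array only, with signals of 9.77 and 51.5. The other EDNRB probe was above background in neither cow. MITF, the transcription factor, had signals of 437 and 789 and a log2 ratio of 0.86, which is 1.82-fold. MC1R, the receptor for melanocyte-stimulating hormone, had signals of 179 and 184 and a log2 ratio of 0.052. KIT, the receptor for stem cell factor, had ratios of -0.18 and 0.040 from its 2 probes. The lowest of these genes was TFAP2A, a transcription factor shared by melanocytes and keratinocytes, with a mean log2 ratio of -0.81. The median over the 9 genes was 0.38. SOX10 was matched by no probe.

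The machinery that builds and moves melanosomes was measured by 14 of 25 genes. Of these, 0 were at least 2-fold higher, 1 was at least 2-fold lower and 13 lay between, with a median log2 ratio of -0.0095, while over all genes with a value 9.86% were higher and 6.47% lower. DTNBP1, a subunit of a complex for melanosome biogenesis, was the highest at 0.32. MLPH, the adaptor that links melanosomes to their myosin motor, was the exception, at a log2 ratio of -3.51. A probe of it had signals of 13867 in light-muzzle and 1188 in dark-muzzle tissue, and the other probe had 547 and 48.9. Of the 6 measured serous gland markers, 4 were also at least 2-fold lower, 1 was at least 2-fold higher and 1 lay between. Their median log2 ratio was -2.90, with summed levels of 274 in light-muzzle and 16.2 in dark-muzzle tissue. The part of gland tissue in the value of MLPH was not tested.

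**Figure D5:**
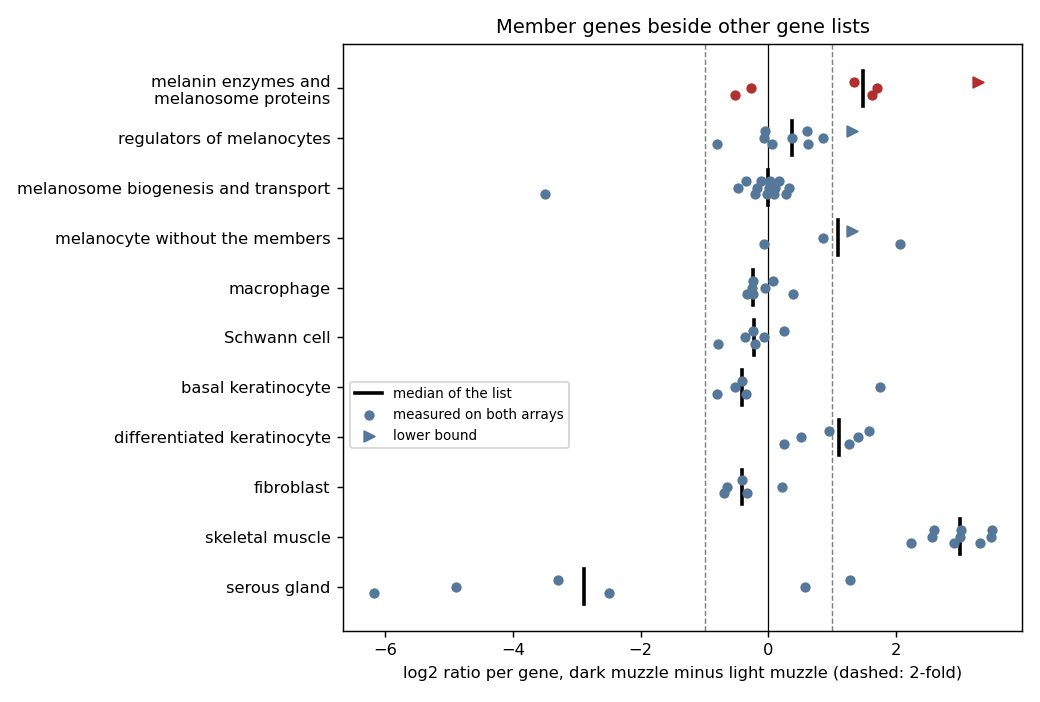
Log2 ratio per gene (dark muzzle minus light muzzle) for the 6 member genes (red) and for the other gene lists (blue), with a black bar at each list's median; triangles are lower bounds and the dashed lines mark 2-fold. The members have a median of 1.48, the melanosome biogenesis and transport genes cluster at 0 apart from MLPH, and the skeletal muscle and serous gland lists have the medians furthest from 0, 3.01 and -2.90.

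The make-up of the 2 tissue pieces was read from marker lists, beside which the member values stand. Melanocyte markers other than the members were measured by 4 of 10 genes. The log2 ratios were -0.072 for KIT, 0.86 for MITF, a bound of 1.31 for EDNRB and 2.06 for QPCT, an enzyme that modifies peptide ends. The summed level of these 4, the sum of the genes' signals relative to each array's 75th percentile, was 1.16 in light-muzzle and 2.82 in dark-muzzle tissue. Most of that rise came from QPCT. Its brightest probe had signals of 909 in light-muzzle and 3554 in dark-muzzle tissue, against 437 and 789 for MITF. KIT, MITF and EDNRB were also among the regulators above, so the 2 lists are not separate. All 7 measured macrophage markers (of 9) lay within 2-fold, with summed levels of 4.34 and 4.25 (light muzzle first, as in what follows) and a median log2 ratio of -0.24, from CD14 at -0.33 to C1QA at 0.38. GPNMB had a log2 ratio of -0.27 beside them, and the part of macrophages in its level was not tested. The 6 measured Schwann cell markers (of 8), from S100B at -0.80 to PMP22 at 0.24, also lay within 2-fold, with summed levels of 11.4 and 8.22 and a median of -0.22. Over all genes with a value, 9.86% were at least 2-fold higher and 6.47% lower, so most genes lay within 2-fold too.

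Epithelial markers were well above background in both cows, as the label of nose tissue requires. The 5 measured basal keratinocyte markers (of 7), cells next to which melanocytes sit, had a median log2 ratio of -0.41 and summed levels of 348 and 324, with COL17A1 lowest at -0.81 and KRT15 highest at 1.75. For 6 of 9 markers of differentiated keratinocytes the median was 1.11, with summed levels of 276 and 666, from DSG1 at 0.25 to KRT10 at 1.57. Of these 6, 3 were at least 2-fold higher and 3 lay within 2-fold. Most of the rise in the sum came from KRT10, whose probe had signals of 138427 and 409786. Fibroblast markers (5 of 6) had a median of -0.42 and summed levels of 79.5 and 54.2, from the collagen gene COL1A1 at -0.69 to LUM at 0.21. No measured marker of these lists was below background in both cows.

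Large shifts of other tissue markers stood beside those of the pigment genes, of which TYRP1 had the highest value, a bound of 3.28. All 9 measured skeletal muscle markers (of 10) were higher by 2-fold or more in dark-muzzle tissue, with a median log2 ratio of 3.01 and summed levels of 222 and 1322, from the actin gene ACTA1 at 2.24 to the myosin gene MYH1 at 3.50. Of the 6 measured serous gland markers (of 7), 4 were at least 2-fold lower and 1 was at least 2-fold higher, from MSMB at -6.18 to BPIFA1 at 1.29. The 2 pieces therefore differed in the RNA of muscle, gland and some differentiated keratinocyte markers, as well as in that of pigment genes. The part of tissue make-up in the differences of TYR, TYRP1, PMEL, SLC24A5, DCT and MLPH was not tested.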

How the data were processed

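Levels were read from 2 Agilent 1-colour arrays of muzzle RNA. The authors deposited Feature Extraction 10.7.3.1 output, whose processed signal is a spot's intensity with the background and spatial trend removed. They also deposited a log2 table made in GeneSpring, which equals the log2 signal minus each array's 75th percentile and was used only as an alternative. No genome coordinate is given, since the array was designed on another build than the ARS-UCD2.0 RefSeq table used for symbols (20587 probes matched).

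Log2 processed signals were shifted by the 75th percentile of noncontrol spots (1144 light, 1137 dark), and 21 outlier spots were left out. Spots marked well above background made up 78.8% (light) and 81.9% (dark). A probe above background on both arrays has a ratio and one above it on 1 array a bound. A gene's value is the mean of its ratios or, with none, its largest bound. Scanner errors of both spots were combined for the error of a ratio. The number of arrays limits the precision. Named genes were all members, 5 regulators (MITF, SOX10, KIT, MC1R and EDNRB) and the extremes of each list. Members and lists were chosen with earlier results of these data known. Alternatives were quantile, loess (span 0.3), the 50th percentile, no shift, normexp (offset 50, on median pixel signals), other filters and thresholds of 1.5-fold and 3-fold. limma 3.58.1 (R 4.3.3) and Python 3.11.15 were used. The calling code was run on simulated arrays with changes larger than 2-fold. No simulated probe was detected on 1 array alone, so that simulation did not exercise the bounds.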

Additional observations from a re-analysis of the deposited data

How the results depend on the processing

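No member probe changed the sign of its ratio under any of the alternatives. Of the 11 probe ratios, 85 alternative values moved by less than 0.17, the median SD between probes of a transcript, and 21 moved by more. Under normexp with its offset of 50 the median log2 ratio over the member genes was 1.09 in place of 1.48. The median over all genes was then 0.067. TYR was short of 2-fold under normexp, which left 3 member genes past it, against 635 of all 8908 genes with a value. The TYRP1 bounds were 1.69, 1.58 and 1.39 in place of 3.28, 2.88 and 2.49. With probes above background on both arrays only, 4 probes in place of 7 were at least 2-fold higher, because the 3 TYRP1 probes then have no value. Of all probes, 8.43% were at least 2-fold higher in that setting. Without a filter on dim probes TYRP1 lay between 3.84 and 5.14, and DCT A_73_P040651 was at 2.86 in place of 0.54. The mean of the DCT probes was 1.17, which would make 5 member genes past 2-fold, against 1173 of all 9647 genes. However, the light-muzzle signals behind the values of TYRP1 and DCT A_73_P040651 were not above background, so these values support no call. At 3-fold, 3 genes (TYRP1, PMEL and SLC24A5) stayed higher, against 418 of all 8914 genes with a value. Over all 36630 probes with a ratio, 3575 were at least 2-fold higher and 2626 lower with the processing used above, bounds included. These counts were 2820 and 2273 of 33451 with probes above background on both arrays only, and 2132 and 1563 of 36557 under normexp. They were 6018 and 3196 without a filter (of 43639) or with the weaker detection mark of the software (of 41398). No paired analysis was possible because each group holds 1 sample. Signals near background limit TYRP1 and the dim DCT probe to bounds.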
